A study of Mus musculus with 8 samples.

Results

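The 43 genes described here encode ligands, receptors, extracellular regulators, SMAD proteins, intracellular inhibitors and Id target genes of TGF-β and BMP signalling. They were listed by name, and each matched 1 of the 24594 rows of the count table through its Entrez Gene ID. RNA was compared between sorted luminal progenitors (LP, c-Kit high, 4 libraries) and mature luminal cells (c-Kit low, 4 libraries) of the mammary gland. Both fractions came from untreated adult wild type C57BL/6J virgin mice, and were sorted by flow cytometry on EpCAM, CD49f, c-Kit and CD14 after enzymatic digestion of the gland. The study's methods call their RNA-seq replicates biological, but neither they nor the labels say that each of the 4 libraries of a fraction came from an animal of its own, so p-values measure the spread between these libraries, whatever its source. In sorted populations such as these, a smaller share of cells that express a gene and less RNA of it per cell cannot be told apart.

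TGF-β, activin and BMP ligands are secreted dimers that bring together type I and type II receptor kinases at the cell surface. The type I receptor then phosphorylates SMAD2 and SMAD3 (TGF-β and activin) or SMAD1, SMAD5 and SMAD9 (BMP), which enter the nucleus with SMAD4, while SMAD6, SMAD7, SMURF ligases, SKI proteins and TGIF1 restrain the signal. In the mammary gland TGF-β is known as a growth inhibitor of the epithelium, and the Id genes, whose products block the DNA binding of basic helix-loop-helix factors, are long-known BMP targets.

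The promoters of 4 genes on which the results below turn are shown first. They were picked from the 7 genes that differed between the fractions under every processing alternative that tested them. RefSeq (build GRCm38.p6) gave at least 1 start-site window for 30 of the 43 genes. Of the 7, Tgfb3 and Tgfbr3 had no window, and the windows of Bmpr1b are not shown. Each sequence is the 250 bases upstream of a start site, 5′ to 3′ on the strand of the gene, and capitals mark CAGAC (either strand, a sequence that SMAD3 and SMAD4 can bind) and GGCGCC (its own reverse complement, bound by SMADs in several BMP target genes). Id2 lies at chr12:25096093-25096342 (minus strand), Id3 at chr4:136143572-136143821 (plus strand), Smurf2 at chr11:106920716-106920965 (minus strand) and Tgfbr1, at its most upstream start, at chr4:47352972-47353221 (plus strand).
Id2: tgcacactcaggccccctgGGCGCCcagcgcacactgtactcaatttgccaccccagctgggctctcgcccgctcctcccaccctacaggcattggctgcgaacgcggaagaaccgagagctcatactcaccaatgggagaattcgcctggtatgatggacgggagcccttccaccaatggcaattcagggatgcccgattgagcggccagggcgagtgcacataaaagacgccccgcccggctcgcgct
Id3: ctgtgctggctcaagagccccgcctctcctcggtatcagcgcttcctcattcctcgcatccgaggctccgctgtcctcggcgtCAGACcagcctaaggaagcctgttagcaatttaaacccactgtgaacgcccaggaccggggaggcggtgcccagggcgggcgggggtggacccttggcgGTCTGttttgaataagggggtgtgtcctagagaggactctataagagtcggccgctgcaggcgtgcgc
Smurf2: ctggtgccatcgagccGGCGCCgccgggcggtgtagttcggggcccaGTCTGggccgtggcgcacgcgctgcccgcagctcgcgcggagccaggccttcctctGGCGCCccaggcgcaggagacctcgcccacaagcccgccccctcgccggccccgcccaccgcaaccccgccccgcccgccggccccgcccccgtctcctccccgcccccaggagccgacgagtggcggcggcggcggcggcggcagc
Tgfbr1: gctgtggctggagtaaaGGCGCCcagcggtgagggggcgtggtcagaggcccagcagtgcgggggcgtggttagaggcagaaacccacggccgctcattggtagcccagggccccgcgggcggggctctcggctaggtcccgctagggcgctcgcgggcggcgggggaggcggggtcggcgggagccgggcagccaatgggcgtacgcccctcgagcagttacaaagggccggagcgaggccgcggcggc
The Id3 window held 2 CAGAC matches and no GGCGCC, whereas the Id2 window held no CAGAC and 1 GGCGCC. The Smurf2 window held 1 and 2 of these motifs, and the Tgfbr1 window held 0 and 1. CAGAC was in 21 of the 41 windows of these genes (51.2%) against 42.2% of all 32851 windows, and GGCGCC in 8 (19.5%) against 9.59%. These are letter matches in a short window and say nothing of binding.

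The libraries held 4410049 to 7791593 counts on genes, so that 3 counts corresponded to 0.416 to 0.788 CPM (counts per 1000000 of the edgeR library size). The sort was checked on marker genes, of which Kit and Cd14 encode proteins used in the sort itself: the summed level of 5 progenitor genes (Kit, Cd14, Elf5, Aldh1a3 and Ltf) was 23500 to 34000 CPM in LP and 408 to 1980 CPM in mature libraries, and that of 6 mature luminal genes, Pgr and Prlr among them, was 307 to 997 against 4370 to 6150 CPM. Of these lists 4 genes were higher in LP and 6 in mature cells, and 4 of 5 general luminal genes were higher in mature cells (11700 to 13100 against 24000 to 43400 CPM), by edgeR at adjusted p below 0.05. Markers of other cell types were low, and none of those tested was called: the summed levels were 18.3 to 50.8 CPM in LP and 15.9 to 82.7 in mature libraries for 10 basal genes, 7.35 to 41.7 and 27.0 to 179 for 6 fibroblast genes, 3.05 to 8.63 and 0.984 to 8.08 for 5 endothelial genes, 10.5 to 13.9 and 6.75 to 9.67 for 7 immune genes, and 0.719 to 6.38 and 0.722 to 3.66 for 4 adipocyte genes. Of these sums only that of the immune genes did not overlap between the fractions, being higher in LP. It rested on Cd52 and Csf1r, each of which overlapped, while the other 5 immune genes were under 1 CPM in every library. Kdr, Cd3e, Tyrobp and Cidec had no count in any library. A list of 10 genes known to respond to tissue dissociation and heat shock summed to 1420 to 2010 CPM in LP and to 4797, 3909, 17990 and 4352 CPM in mature replicates 1 to 4, with 1 gene higher in LP and 6 in mature cells. Mature replicate 3 thus stood apart in this list, mainly through the heat-shock genes Hspa1a, Hspa1b and Dnajb1 (8252.9, 3779.3 and 3243.7 CPM). Among mature libraries, Fos, Fosb, Egr1 and Ier2 were also highest there, while Jun, Junb and Atf3 peaked in other libraries. Mature replicate 3 also had the highest progenitor sum (1984 CPM) and basal sum (82.7 CPM) of the mature libraries.

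**Figure D1:**
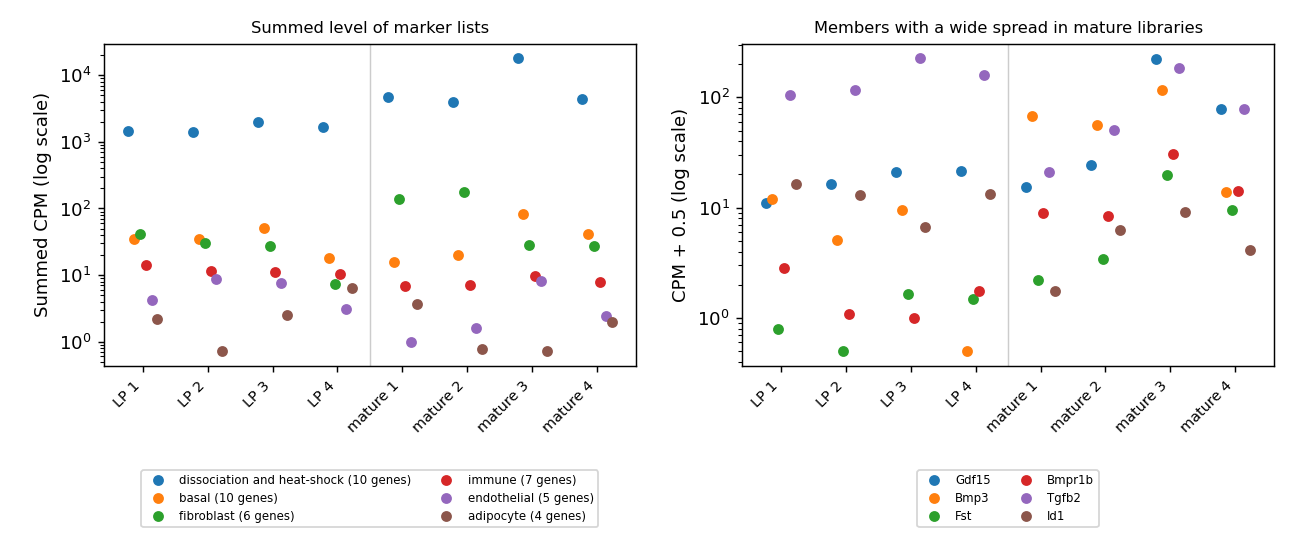
Summed CPM of 6 marker lists (left, log scale), 1 point per library. At right is CPM + 0.5 (log scale) of 6 signalling genes with a wide spread between mature libraries. The dissociation and heat-shock list reached 17990 CPM in mature replicate 3. Gdf15, Bmp3, Fst, Bmpr1b, Tgfb2 and Id1 were picked for this panel as genes at their highest in that library among the mature libraries. Other genes with a wide spread peaked elsewhere, such as Tgif1 (1383 CPM in mature replicate 2) and Tgfbr1 (18.8 CPM in mature replicate 1).

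Of the 43 genes, 38 passed the filter on low counts and were tested (edgeR quasi-likelihood test, Benjamini-Hochberg adjustment over all 12816 tested genes, called at adjusted p below 0.05). Among these, 5 were higher in LP (Tgfb3, Tgfbr1, Tgfbr3, Ltbp3 and Id2), 11 were higher in mature cells (Bmp3, Gdf15, Bmpr1a, Bmpr1b, Bmp1, Fst, Smad2, Smad3, Smurf2, Tgif1 and Id3) and 22 were not called. The share called was 42.1% of those tested, against 24.7% of all tested genes (10.9% with LP higher and 13.8% with mature higher). Since the list was drawn up with earlier results of these data known, these shares are a description. With a change of over 1 on the log2 scale added, 5 and 9 genes were left in the same order, against 16.1% of all tested genes in either direction. In 16 genes the 2 fractions did not overlap (7 with LP higher, 9 with mature higher), where 29.5% of all tested genes showed no overlap. The median log2 fold change (LP minus mature, so that positive values are higher in LP) was -0.34 against 0.00 over all tested genes, and the median absolute value 0.78 against 0.55. Without mature replicate 3 the count higher in LP was 8, and the count higher in mature cells was 7 without LP replicate 2 or LP replicate 4. Since a gene high in a single fraction passes the filter through that fraction, the counts among tested genes describe those genes and not all 43.

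**Figure D2:**
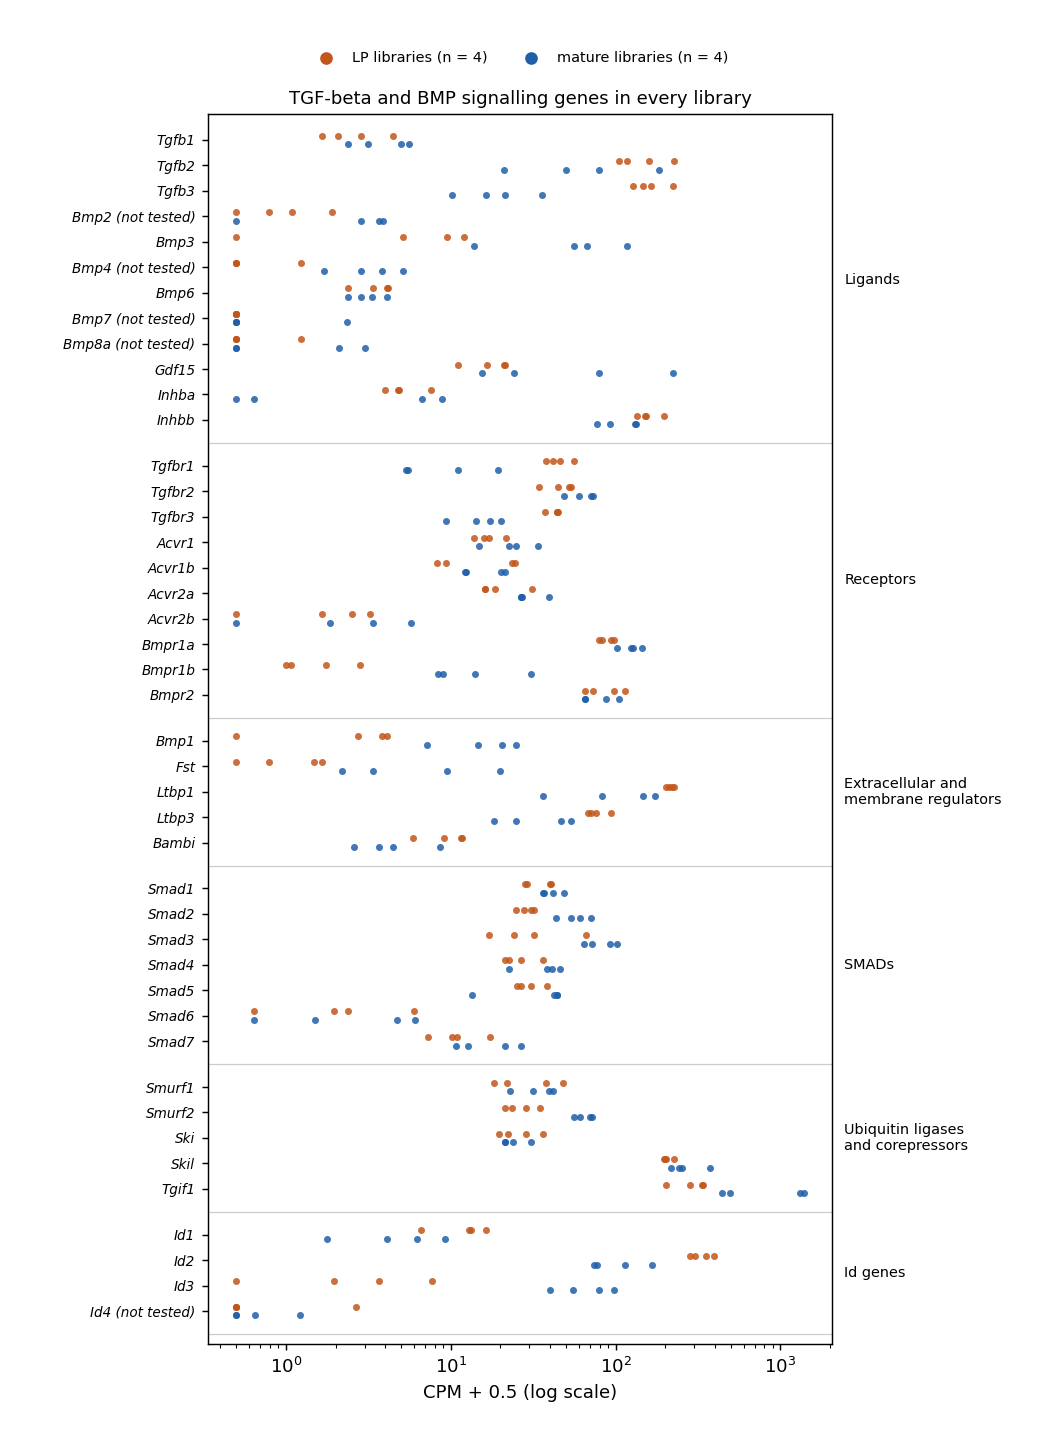
CPM + 0.5 (log scale) of the 43 genes grouped by role, 1 point for each of 4 LP and 4 mature libraries. Tgfb3, Tgfbr1, Tgfbr3 and Id2 lay higher in LP without overlap, and Bmpr1b, Smurf2, Tgif1 and Id3 higher in mature libraries without overlap.

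**Figure D3:**
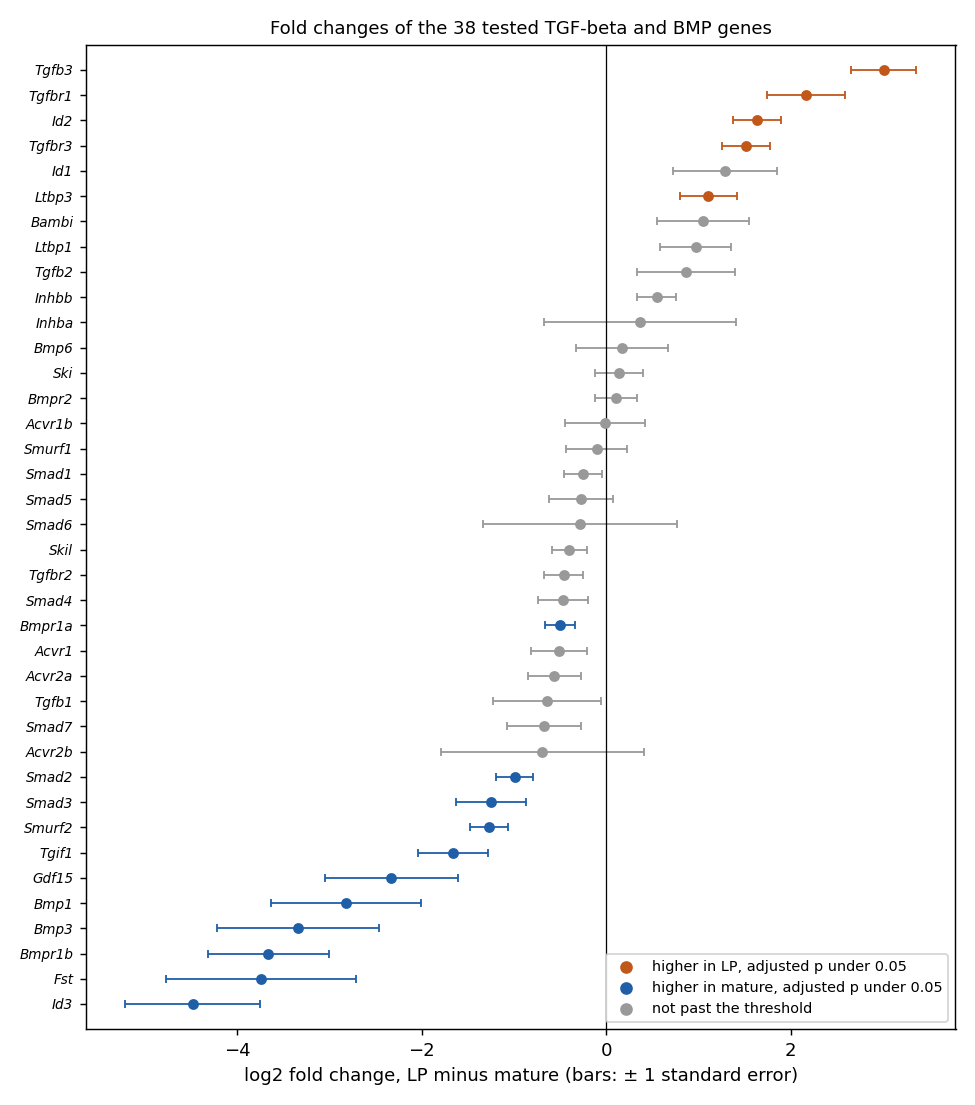
Log2 fold change (LP minus mature) of the 38 tested genes with bars of 1 standard error (edgeR), coloured by call. Values run from 3.01 for Tgfb3 to -4.48 for Id3, and all 7 SMAD genes lie below 0.

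Among the 12 ligand genes, Tgfb3 was the one called higher in LP, while Bmp3 and Gdf15 were called higher in mature cells. Tgfb3 (Entrez Gene 21809, chr12:86056743-86079041), which encodes a TGF-β isoform, was at 127, 147, 224 and 164 CPM in LP replicates 1 to 4 and at 20.7, 9.72, 35.2 and 15.8 CPM in mature replicates 1 to 4. The lowest LP library was above the highest mature library, and the means of 166 ± 41.8 and 20.4 ± 10.9 CPM (SD, n = 4 each) were 8.04-fold apart (log2 fold change 3.01, SE 0.35, adjusted p = 0.000473 by edgeR). Under the alternatives the Tgfb3 log2 fold change stayed between 2.81 and 3.43. About 7.6% of its exon length overlaps an antisense gene model, and the counting was not stated to use strand.

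Tgfb2, another TGF-β isoform, was at 104, 117, 225 and 160 CPM in LP and at 20.4, 49.6, 183 and 78.5 CPM in mature libraries. The fractions overlapped because of mature replicate 3, and the difference did not pass (log2 fold change 0.87, SE 0.53, adjusted p = 0.263 by edgeR), whereas without that library it did (1.64, adjusted p = 0.0201). Tgfb1 was near the detection floor in both fractions, at 1.16 to 3.98 CPM in LP and 1.88 to 5.06 CPM in mature libraries, and was not called (-0.64, SE 0.59, adjusted p = 0.470 by edgeR).

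Bmp3 (Entrez Gene 110075, chr5:98854415-98884053), an atypical BMP known to oppose other BMPs, was at 11.5, 4.60, 8.96 and 0 CPM in LP and at 66.7, 55.7, 117 and 13.3 CPM in mature libraries. Every mature library was above every LP library, and the means of 6.26 ± 5.05 and 63.2 ± 42.7 CPM differed by a log2 fold change of -3.34 (SE 0.88, adjusted p = 0.0187 by edgeR). Without LP replicate 2 the adjusted p was 0.0589.

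Gdf15 (Entrez Gene 23886, chr8:70629393-70632470) encodes a distant family member that is induced by cellular stress and acts through the receptor GFRAL. It was at 10.6, 16.0, 20.4 and 20.8 CPM in LP and at 14.9, 23.6, 223 and 78.4 CPM in mature libraries, so the fractions overlapped and most of the difference lay in mature replicates 3 and 4. The log2 fold change was -2.33 (SE 0.72, adjusted p = 0.0364 by edgeR). It was -1.19 (adjusted p = 0.121 by edgeR) without mature replicate 3. That library also had 17990 CPM in the dissociation and heat-shock list, mainly from its heat-shock genes. The call was also lost without any 1 of the LP libraries or without mature replicate 4, with adjusted p between 0.0627 and 0.0975. The part of dissociation or heat shock in the Gdf15 result was not tested.

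Inhbb encodes the activin βB subunit and was the most abundant activin gene. Its levels of 197, 152, 134 and 150 CPM in LP and 130, 91.9, 76.7 and 132 CPM in mature libraries did not overlap. The difference of 0.55 on the log2 scale (SE 0.21) was nevertheless not called (adjusted p = 0.0778 by edgeR), and passed without mature replicate 4 (0.70, adjusted p = 0.0456). Inhba, the βA subunit, was at 3.48 to 7.04 CPM in LP and 0 to 8.29 CPM in mature libraries. Bmp6 was at 1.89 to 3.65 and 1.88 to 3.62 CPM in LP and mature libraries respectively, and neither Inhba nor Bmp6 was called.

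The other 4 ligand genes did not pass the filter and have no test. Bmp4 was at 0.726, 0, 0 and 0 CPM in LP and at 4.64, 2.36, 3.32 and 1.21 CPM in mature libraries, which is 5 against 73 counts in total. Bmp2 had 16 counts in LP and 55 in mature libraries, with 0 in mature replicate 4. Bmp8a had 5 and 29, and Bmp7 had 0 and 13, all 13 in mature replicate 1. Levels per kb of exon can be compared between genes. Among the 12 ligand genes, Tgfb3 led in LP (48.9 ± 12.4 CPM per kb), followed by Inhbb (37.2 ± 6.28) and Tgfb2 (26.2 ± 9.42). Their neighbouring means lay within the sum of their SDs. In mature libraries the mean of Gdf15 was highest (45.8 ± 51.9 CPM per kb) but rested on mature replicate 3, and Gdf15 is therefore given no place in the order. The others of the 12 followed as Inhbb (25.3 ± 6.54 CPM per kb), Tgfb2 (14.3 ± 12.3), Bmp3 (8.54 ± 5.77) and Tgfb3 (6.02 ± 3.22), again with each neighbouring pair within its spread. Bmp8b, a ligand gene outside the 12, was at 15.7 ± 2.24 CPM per kb in LP and 17.6 ± 3.32 in mature libraries. It was not called (log2 fold change -0.16, SE 0.19) and is not in this order.

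Of the 10 receptor genes, all of which were tested, Tgfbr1 and Tgfbr3 were higher in LP, while Bmpr1a and Bmpr1b were so in mature cells. Tgfbr1 (Entrez Gene 21812, chr4:47353222-47414926), the type I receptor of TGF-β whose promoter is shown above, was at 37.2, 41.3, 45.5 and 55.1 CPM in LP and at 18.8, 4.99, 10.5 and 4.82 CPM in mature libraries. The fractions did not overlap, and the means of 44.7 ± 7.68 and 9.80 ± 6.59 CPM were 4.50-fold apart (log2 fold change 2.17, SE 0.42, adjusted p = 0.00417 by edgeR). Tgfbr3 (Entrez Gene 21814, chr5:107106567-107289629), which encodes betaglycan, a co-receptor that presents TGF-β2 to the signalling receptors, was at 36.9, 43.6, 44.5 and 43.6 CPM in LP and at 8.86, 16.8, 19.6 and 13.7 CPM in mature libraries. No mature library reached the LP range, and the means differed 2.86-fold (log2 fold change 1.52, SE 0.26, adjusted p = 0.00262 by edgeR). Tgfbr2, the type II receptor of TGF-β, was at 53.3, 51.3, 44.5 and 33.9 CPM in LP and at 72.7, 47.8, 59.6 and 70.5 CPM in mature libraries, and this difference in the opposite direction was not called (-0.46, SE 0.21, adjusted p = 0.132 by edgeR).

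Bmpr1b (Entrez Gene 12167, chr3:141837135-142169585), a type I BMP receptor, was at 2.32, 0.575, 0.498 and 1.25 CPM in LP and at 8.44, 7.88, 30.0 and 13.6 CPM in mature libraries. The fractions did not overlap, with 32 counts in all LP libraries and 388 in all mature libraries (log2 fold change -3.66, SE 0.66, adjusted p = 0.00321 by edgeR). Without mature replicate 3 the log2 fold change was -3.05 and was still called. Bmpr1a (Entrez Gene 12166, chr14:34411061-34503336), the more abundant type I BMP receptor, was at 97.9, 81.8, 79.2 and 93.8 CPM in LP and at 127, 124, 101 and 145 CPM in mature libraries. Here the means of 88.2 ± 9.07 and 124 ± 18.0 CPM were 1.41-fold apart (log2 fold change -0.50, SE 0.16, adjusted p = 0.0419 by edgeR). This call was lost with upper-quartile scaling (adjusted p = 0.0524), with no low-count filter (0.105) and without any 1 library other than mature replicate 3 (0.0652 to 0.114).

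The 5 other receptors were not called. Bmpr2, a type II BMP receptor, was at 64.4 to 113 CPM in LP and 64.8 to 105 CPM in mature libraries (log2 fold change 0.11, SE 0.23). Acvr1, Acvr1b, Acvr2a and Acvr2b, whose names do not mean that they serve activin alone, had log2 fold changes of -0.51, -0.01, -0.56 and -0.69, with SEs from 0.29 to 1.10. Acvr2a overlaps the protein-coding gene Orc4, on the opposite strand, over 7.84% of its exon length.

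Among the 5 extracellular or membrane regulators, Ltbp3 was higher in LP, while Bmp1 and Fst were so in mature cells. Ltbp3 (Entrez Gene 16998, chr19:5740900-5758536), a latent TGF-β binding protein that holds the ligand in the matrix, was at 93.2, 67.7, 76.0 and 70.5 CPM in LP and at 24.5, 17.9, 53.0 and 46.0 CPM in mature libraries. All LP libraries were above all mature libraries, by 2.16-fold between the means (log2 fold change 1.11, SE 0.31, adjusted p = 0.0252 by edgeR). The call was lost without LP replicate 1 (adjusted p = 0.0709), LP replicate 3 (0.0508) or mature replicate 1 (0.065). Ltbp1, of the same family, was at 203, 210, 226 and 219 CPM in LP and at 146, 174, 81.9 and 35.9 CPM in mature libraries. Although these ranges did not overlap, Ltbp1 was not called (0.97, SE 0.38, adjusted p = 0.0877 by edgeR), while DESeq2 gave an adjusted p of 0.0307, the edgeR exact test 0.0496, the edgeR likelihood ratio test 0.0476 and the fit without mature replicate 2 0.0374.

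Fst (Entrez Gene 14313, chr13:114452262-114458989) encodes follistatin, a secreted antagonist of activins. It was at 0.290, 0, 1.16 and 0.971 CPM in LP and at 1.69, 2.89, 19.3 and 9.04 CPM in mature libraries, or 16 against 217 counts. The fractions did not overlap (log2 fold change -3.74, SE 1.03, adjusted p = 0.0224 by edgeR), and the highest level was in mature replicate 3. Without LP replicate 1 the adjusted p was 0.0664, and without mature replicate 3 or mature replicate 4 the gene did not pass the filter. In mature replicates 1 to 4 the basal markers Krt14 (2.11, 1.58, 18.6 and 7.84 CPM) and Acta2 (4.36, 2.89, 16.6 and 10.2 CPM) were at levels like those of Fst. Among mature libraries, Krt17 (7.03, 6.83, 28.3 and 12.7 CPM) was also highest in replicate 3, as were Krt5, Myh11, Mylk, Oxtr and Cdh3 at lower levels. Trp63 peaked in mature replicate 4 and Cnn1 in mature replicate 2. Between the fractions, Krt17 and Oxtr had positive log2 fold changes (0.57 and 3.12), and no tested basal gene was called. The part of basal cells in the Fst result was not tested. Bmp1 (Entrez Gene 12153, chr14:70474555-70520716), which despite its name encodes a metalloprotease of procollagens and chordin, was at 3.63, 0, 3.32 and 2.22 CPM in LP and at 14.2, 24.4, 19.9 and 6.63 CPM in mature libraries. There was no overlap (log2 fold change -2.82, SE 0.81, adjusted p = 0.027 by edgeR), and the call was lost without LP replicate 4 (adjusted p = 0.0673) or mature replicate 2 (0.0719). Bambi, a pseudoreceptor without a kinase, was at 5.37 to 11.2 CPM in LP and 2.10 to 8.08 CPM in mature libraries and was not called (1.05, SE 0.50, adjusted p = 0.154 by edgeR), but was without mature replicate 3 (1.57, adjusted p = 0.0417).

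Of the 6 fibroblast genes, Dcn was at 132 and 154 CPM in mature replicates 1 and 2 against 1.53 to 24.7 CPM in the other libraries. The rest of the list was mixed. Lum was also higher in mature libraries without overlap (2.67, 5.52, 3.61 and 5.27 CPM, against 2.61, 0, 0.996 and 0 CPM in LP), though it was not called. Pdgfra, Col1a1, Col1a2 and Col3a1 overlapped between the fractions. Pdgfra, the next highest, reached 16.3 CPM in mature replicate 2 but 0.562 CPM in mature replicate 1, and Col1a1 was at 0 in both. Bmp1 was at its highest in mature replicate 2 and Bmp4 in mature replicate 1, whereas Fst, Bmp3 and Gdf15 were at their highest in mature replicate 3. The part of fibroblasts in these results was not tested.

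All 7 SMAD genes had a negative log2 fold change, and 2 of them, the TGF-β and activin transducers Smad2 and Smad3, were called higher in mature cells. This share of 28.6% is near the 24.7% of all tested genes. Smad6, which was near the detection floor, turned positive without LP replicate 4 (0.11), mature replicate 2 (0.01) or mature replicate 4 (0.41). Smad2 (Entrez Gene 17126, chr18:76241090-76311748) was at 31.7, 24.4, 30.0 and 27.5 CPM in LP and at 60.3, 70.1, 42.9 and 53.0 CPM in mature libraries. Each mature library was above each LP library, with means 1.99-fold apart (log2 fold change -0.99, SE 0.20, adjusted p = 0.00564 by edgeR). The call was lost when both libraries numbered 2 were left out (adjusted p = 0.0542). Smad3 (Entrez Gene 17127, chr9:63646766-63757994) was at 31.4, 16.5, 65.7 and 23.7 CPM in LP and at 92.2, 101, 63.5 and 71.0 CPM in mature libraries. LP replicate 3 was above mature replicate 3, so the fractions overlapped (log2 fold change -1.25, SE 0.38, adjusted p = 0.0323 by edgeR). Leaving out LP replicate 1, 2 or 4 or mature replicate 1, 2 or 4 lost this call, with adjusted p of 0.0533 to 0.0901.

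The BMP transducers Smad1 and Smad5 were at 27.6 to 40.0 and 24.7 to 37.9 CPM in LP and at 35.7 to 47.9 and 12.9 to 43.9 CPM in mature libraries, and were not called (log2 fold changes -0.25 and -0.27, SEs 0.21 and 0.35). Smad4, the shared partner, was at 20.9 to 36.0 and 22.1 to 45.4 CPM (-0.47, SE 0.27). The inhibitory genes Smad6 (0.139 to 5.48 and 0.141 to 5.57 CPM) and Smad7 (6.80 to 16.9 and 10.2 to 26.0 CPM) had log2 fold changes of -0.28 (SE 1.05) and -0.67 (SE 0.40). Neither was called.

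Of the 5 intracellular inhibitors, Smurf2 and Tgif1 were higher in mature cells. Smurf2 (Entrez Gene 66313, chr11:106820061-106920747), a ubiquitin ligase that targets SMADs and TGF-β receptors and whose promoter is among those printed, was at 28.2, 23.1, 34.5 and 20.7 CPM in LP and at 60.7, 55.2, 69.6 and 71.9 CPM in mature libraries. The fractions were well separated relative to their SDs, with means of 26.6 ± 6.12 and 64.3 ± 7.78 CPM (2.42-fold, log2 fold change -1.27, SE 0.21, adjusted p = 0.00197 by edgeR). Its relative Smurf1 was at 17.8 to 47.5 CPM in LP and 22.3 to 41.0 CPM in mature libraries and was not called (-0.10, SE 0.33, adjusted p = 0.861 by edgeR). Whether the change of Smurf2 differed from that of Smurf1 was not tested.

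Tgif1 (Entrez Gene 21815, chr17:70844205-70853532), a homeodomain corepressor of SMAD2 and SMAD3, was at 281, 201, 338 and 332 CPM in LP and at 1320.3, 1383, 443 and 495 CPM in mature libraries. The lowest mature library was above the highest LP library, but the mature libraries fell into a higher pair (replicates 1 and 2) and a lower pair (replicates 3 and 4). The log2 fold change was -1.66 (SE 0.38, adjusted p = 0.0103 by edgeR), and the call was lost without both libraries numbered 1 (adjusted p = 0.0684) or numbered 2 (0.081). The corepressor genes Ski (19.1 to 35.9 CPM in LP, 20.8 to 30.2 CPM in mature libraries) and Skil (196 to 226 and 216 to 376 CPM) were not called, with log2 fold changes of 0.14 (SE 0.26) and -0.40 (SE 0.19).

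The Id genes went in both directions. Id2 (Entrez Gene 15902, chr12:25093799-25096092) was at 303, 284, 353 and 396 CPM in LP and at 114, 73.8, 165 and 76.4 CPM in mature libraries. There was no overlap, and the means of 334 ± 50.6 and 107 ± 42.4 CPM were 3.11-fold apart (log2 fold change 1.64, SE 0.26, adjusted p = 0.00172 by edgeR). Id3 (Entrez Gene 15903, chr4:136143822-136145392) was at 1.45, 7.19, 0 and 3.19 CPM in LP and at 96.7, 78.3, 39.4 and 55.0 CPM in mature libraries. The fractions were far apart, with 83 counts in LP against 1624 in mature libraries, and Id3 had the most negative log2 fold change of the 38 tested genes (-4.48, SE 0.73, adjusted p = 0.00197 by edgeR). Without LP replicate 2, the library with the most Id3 among LP, the value was -5.38. Id1 was at 15.8, 12.4, 6.14 and 12.8 CPM in LP and at 1.27, 5.78, 8.66 and 3.62 CPM in mature libraries, which overlapped and were not called (1.29, SE 0.56, adjusted p = 0.122 by edgeR), but were without mature replicate 3 (1.78, adjusted p = 0.0479). Id4 had 15 counts in LP, all in replicate 2, and 6 in mature libraries, and was not tested.

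Because genes of a family share receptors or partners, the share of each family held by a gene was computed per kb of exon in every library. These shares come from the same libraries as the fold changes above and are no separate evidence. Id2 held 89.6, 88.4, 96.5 and 92.7% of the summed Id level in LP and 45.9, 38.3, 69.5 and 48.1% in mature libraries, while Id3 held 0.584, 3.05, 0 and 1.02% in LP and 53.0, 55.3, 22.6 and 47.1% in mature libraries. The summed Id level itself was 132 to 175 CPM per kb in LP and 65.2 to 102 CPM per kb in mature libraries. LP libraries held mainly Id2 (137 ± 20.8 against 1.65 ± 1.73 CPM per kb of Id3). The means of Id2 and Id3 in mature libraries were 44.0 ± 17.4 and 37.6 ± 14.1 CPM per kb, but mature replicate 3 held Id2 at 67.5 and Id3 at 22.0 CPM per kb.

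Tgfb3 made up 67.3, 67.9, 62.5 and 63.2% of the summed Tgfb1, Tgfb2 and Tgfb3 level in LP and 57.5, 24.0, 24.5 and 24.4% in mature libraries, with mature replicate 1 close to the LP range. Tgfb2 made up 31.6 to 36.7% in LP and 33.1, 71.6, 74.6 and 70.9% in mature libraries. Bmpr1b accounted for 0.666 to 2.47% of the summed Bmpr1a and Bmpr1b level in LP and for 6.60, 6.35, 24.0 and 9.05% in mature libraries, so Bmpr1a was the main of the pair in both fractions. Tgfbr1 accounted for 46.6, 50.2, 56.2 and 67.1% of the summed Tgfbr1 and Tgfbr2 level in LP and for 24.5, 11.6, 18.1 and 7.89% in mature libraries. In 5 of these 6 shares the fractions did not overlap, with an exact two-sided permutation p of 0.0286, the smallest that 4 against 4 allows (0.0343 after Benjamini-Hochberg adjustment over the 6). For the Tgfb2 share the fractions overlapped (exact permutation p = 0.0857, adjusted 0.0857). The genes were chosen with earlier results of these data known, and shares within a family depend on each other. The 6 tests are thus not independent, and their p-values add nothing to the fold changes above.

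**Figure D4:**
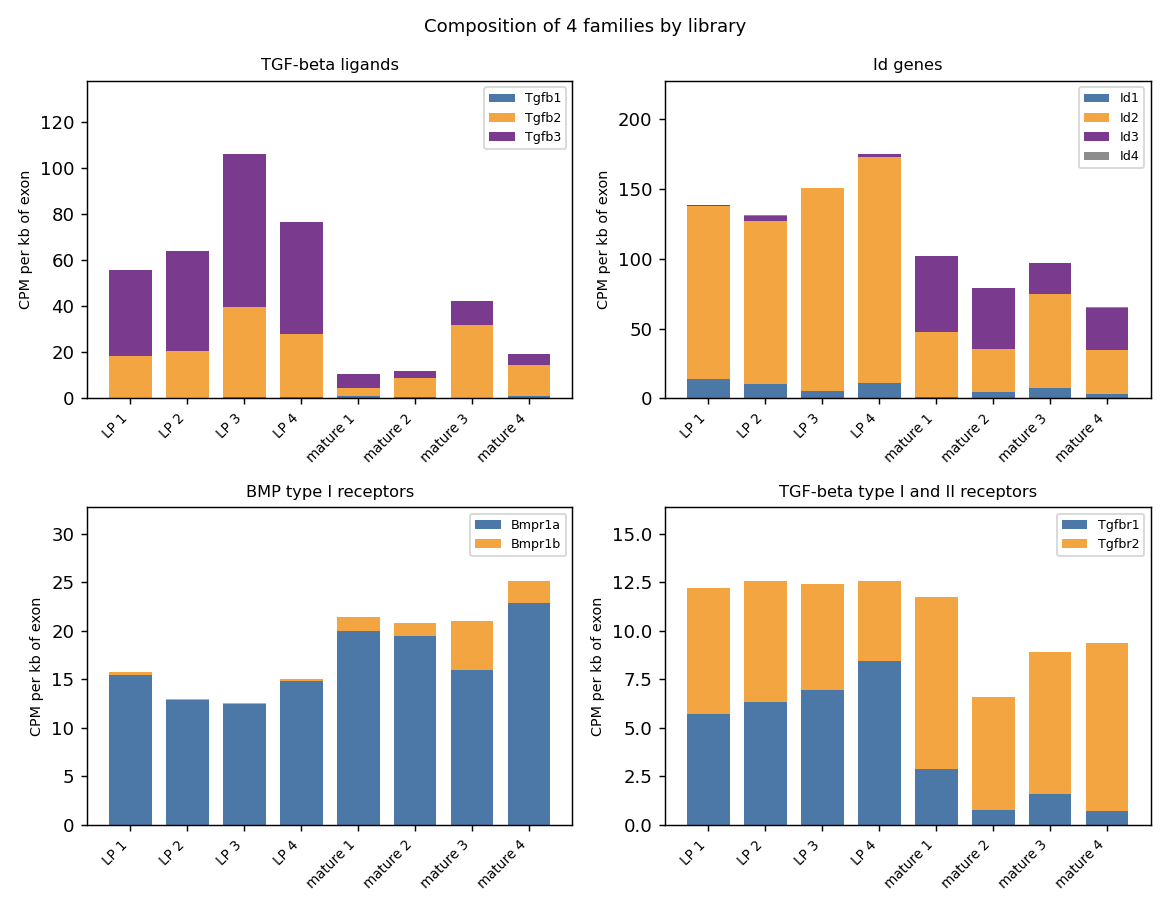
Stacked level per kb of exon (CPM per kb) of the genes of 4 families in each of the 4 LP and 4 mature libraries. The Id bars are almost all Id2 in LP (88.4 to 96.5%) and are divided between Id2 and Id3 in mature libraries, and the Tgfb bars are taller in LP (55.9 to 106 CPM per kb) than in mature libraries (10.6 to 42.4).

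The wider pathway was covered by 95 other ligand, receptor, regulator and target genes, of which 56 passed the filter. Of these, 5 were higher in LP and 9 in mature cells (25.0% of those tested, against 24.7% of all tested genes), so the share called was near the background. The count higher in LP was 11 without mature replicate 3 and 3 without LP replicate 1. The median log2 fold change was 0.06. By role, 0 of 5 ligands, 1 of 5 receptors (higher in mature cells), 4 of 12 extracellular regulators (2 in each direction), 3 of 23 intracellular regulators (2 higher in LP) and 6 of 11 targets (1 higher in LP, 5 in mature cells) were called.

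Thbs1, which encodes thrombospondin 1, an activator of latent TGF-β, was at 990, 833, 626 and 705 CPM in LP and at 39.0, 69.1, 218 and 49.3 CPM in mature libraries. It did not overlap between the fractions (log2 fold change 3.07, SE 0.51, adjusted p = 0.00211 by edgeR), and the value without mature replicate 3 was 3.95. Chrdl2, a secreted BMP antagonist, was at 18.7, 26.7, 4.15 and 4.16 CPM in LP and at 0.562, 0, 2.45 and 0 CPM in mature libraries (log2 fold change 4.04, SE 1.09, adjusted p = 0.0213 by edgeR). Its call was lost without LP replicate 1 (adjusted p = 0.0559), LP replicate 2 (0.0748) or mature replicate 1 (0.0526), and without mature replicate 3 its log2 fold change was 5.86. Hey1, a transcriptional repressor that responds to both Notch and BMP, was at 343, 424, 111 and 247 CPM in LP and at 14.3, 24.2, 78.5 and 29.5 CPM in mature libraries (log2 fold change 2.93, or 3.66 without mature replicate 3). The ubiquitin ligase gene Wwp1 (1.16, SE 0.33, adjusted p = 0.027 by edgeR) and the deubiquitinase gene Usp4 (0.69, SE 0.18, adjusted p = 0.0191 by edgeR) were the other 2 higher in LP. Wwp1 lost its call without LP replicate 1 (adjusted p = 0.0617), LP replicate 2 (0.0734) or mature replicate 1 (0.0572), and Usp4 without LP replicate 4 (0.056).

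Among those higher in mature cells was Ccn2, a matrix-associated growth factor gene that TGF-β induces. The study names it, as Ctgf, a known YAP target and a joint target of YAP and SRF. Ccn2 was at 2.90, 2.44, 8.96 and 3.47 CPM in LP and at 31.1, 61.2, 194 and 47.6 CPM in mature libraries. The difference of -4.24 on the log2 scale (SE 0.65, adjusted p = 0.0014 by edgeR) was -3.36 without mature replicate 3. Msx2, a homeobox gene and known BMP target, was at 10.9, 11.8, 9.13 and 1.66 CPM in LP and at 126, 101, 118 and 125 CPM in mature libraries, a narrow range well above LP (-3.81, SE 0.44, adjusted p = 0.000449 by edgeR). Eng, which encodes the co-receptor endoglin and is best known from endothelial cells, was at 4.94, 5.75, 1.33 and 0.277 CPM in LP and at 40.5, 38.1, 21.5 and 44.1 CPM in mature libraries (-3.54, SE 0.66, adjusted p = 0.00369 by edgeR). Of the 5 endothelial markers, Cdh5, Kdr, Emcn and Tie1 were under 1 CPM in every library, and Pecam1 was at 4.07, 8.19, 7.30 and 2.91 CPM in LP and at 0.984, 1.58, 7.94 and 1.96 CPM in mature libraries. Fstl1, a follistatin-like secreted protein gene, was at 0.575 to 1.16 CPM in LP and at 13.6, 4.73, 2.02 and 5.57 CPM in mature libraries, and its log2 fold change of -2.80 was -2.11 without mature replicate 1. Tsc22d1, first described as a TGF-β-stimulated transcript, was at 663 to 1168 CPM in LP and 2315 to 4537 CPM in mature libraries (-1.89, SE 0.27, adjusted p = 0.000995 by edgeR). The 4 remaining genes higher in mature cells had log2 fold changes from -1.61 to -0.81.

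**Figure D5:**
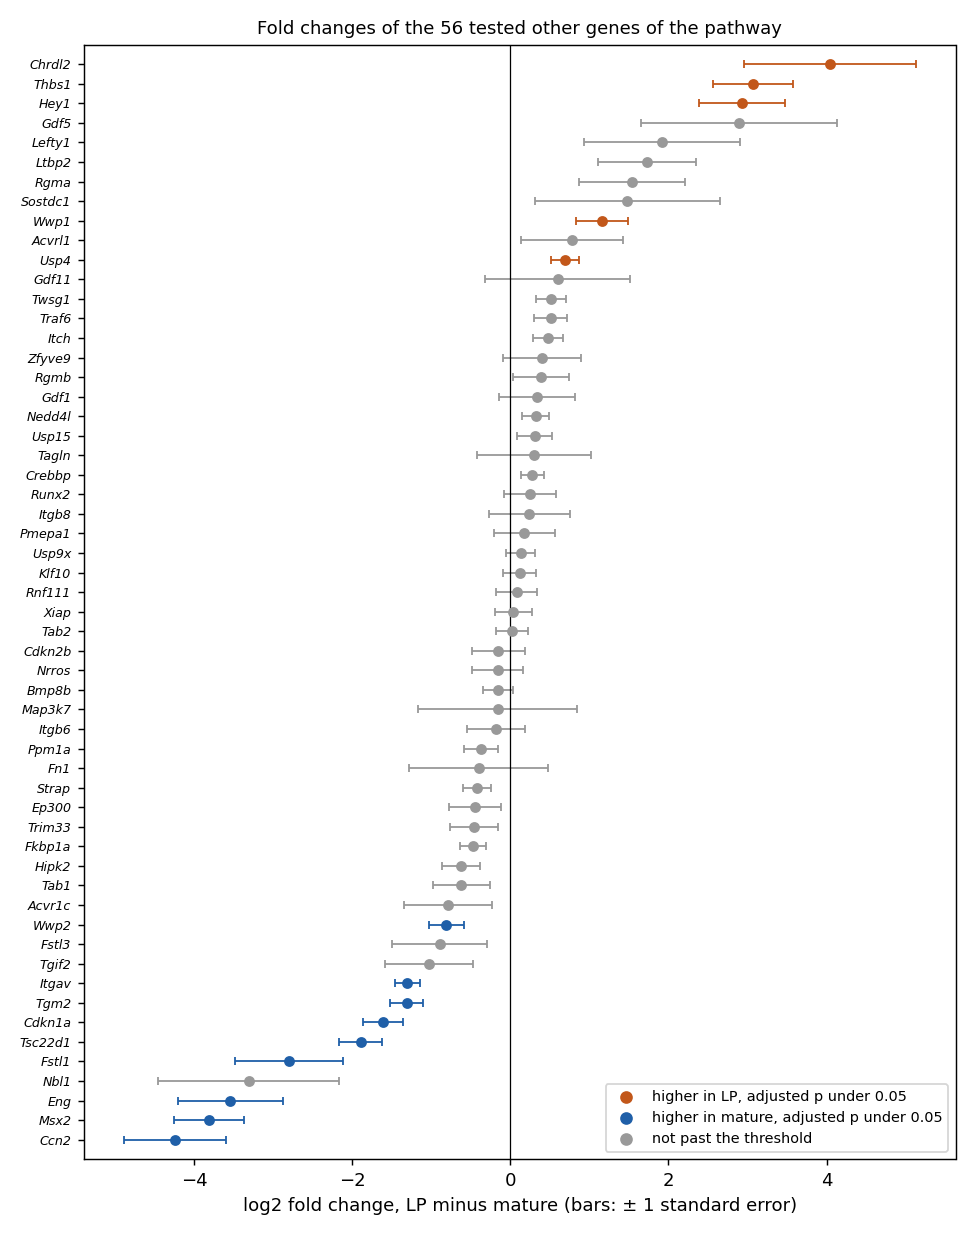
Log2 fold change (LP minus mature) of the 56 tested genes among 95 other genes of the pathway, with bars of 1 standard error (edgeR), coloured by call. The 5 genes higher in LP reach 4.04 (Chrdl2) and the 9 higher in mature cells reach -4.24 (Ccn2).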

How the data were processed

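RNA of 4 LP and 4 mature luminal libraries was amplified from a low input before sequencing. According to the labels and the study's methods, the authors trimmed reads with cutadapt (4.2 per the submitters' processing notes), aligned them to mm10 with Bowtie2 (2.3.5.1 per the same notes), which does not split reads across introns, and deposited the raw, unnormalized counts of reads for each gene. The counting program, its annotation and its use of strand are not given in the sources used here. Amplified reads are not independent molecules, so floors cover counting error only.

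From the deposited counts, genes were filtered with filterByExpr by fraction, normalized by TMM and compared with the quasi-likelihood test of edgeR 4.0.16 (limma 3.58.1, R 4.3.3). The standard error is the absolute log2 fold change divided by the square root of F. Shares were compared in Python 3.11.15 (pandas 2.3.3, scipy 1.17.1). Levels per kb used the union of GENCODE exons, and positions are from RefSeq on GRCm38, the build of mm10. Alternatives were RLE and upper-quartile scaling, DESeq2 1.42.0, the edgeR exact and likelihood ratio tests, other filters, thinning to the smallest library, a replicate block and left-out libraries. The procedure was also run on simulated counts, drawn independently for each library. These had no structure shared between libraries, so they cannot vouch for the calls in these data. Libraries of a fraction differed by more than sampling noise. The chi-square per degree of freedom was 12.6 between LP replicates 1 and 2, and 21.6 to 31.3 in the other LP pairs. It was 15.5 between mature replicates 1 and 2, and 54.3 to 95.7 in the other mature pairs. The source of this was not tested. Called genes, genes whose fractions did not overlap, and up to 5 called other pathway genes in each direction were named. The genes and lists were chosen with earlier results of these data known.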

Additional observations from a re-analysis of the deposited data

Results flagged for a closer look

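A single library stood apart from the other 3 of its fraction in 9 of 85 groups of 4 CPM values of the 43 genes. The rule was a gap to the nearest library, over the range of the group, above Dixon's critical value. For normally distributed values chance gives about 1 in 20, or 4.25. In the groups of Bmp4, Bmp8a, Bmp7 and Id4 the other libraries were at 0, so this ratio was 1 whatever the value. The chance number does not hold for such groups, and no excess over it is read from the 9. In LP replicate 1, Bmp4 was at 0.726 CPM and Bmp8a at 0.726 CPM with the other 3 LP libraries at 0, Tgfbr3 was lowest at 36.9 CPM (others 43.6 to 44.5), Acvr2a was highest at 30.6 CPM (others 15.7 to 18.1) and Skil was highest at 226 CPM (others 196 to 201). Id4 was at 2.16 CPM in LP replicate 2 and at 0 in the other LP libraries. Bmp7 was at 1.83 CPM in mature replicate 1 and at 0 in the other mature libraries. Smad5 was lowest in mature replicate 2 at 12.9 CPM (others 42.0 to 43.9), and Acvr2a was highest in mature replicate 4 at 39.2 CPM (others 26.1 to 26.7). Of these genes, Tgfbr3 was the one called between the fractions.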

How the results depend on the processing

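Of the 16 called genes, 7 (Tgfb3, Tgfbr1, Tgfbr3, Bmpr1b, Smurf2, Id2 and Id3) were called in all of the 21 alternatives that tested them, 9 lost the call in at least 1, and 5 genes that had not been called were called in at least 1. The count of the 43 genes higher in LP (5) ranged from 4 to 8 when libraries were left out, with 8 without mature replicate 3. The count higher in mature cells (11) was 6 with at least 10 counts in every library, a filter that leaves out Bmp3, Bmpr1b, Bmp1, Fst and Id3, and 5 to 9 when libraries were left out (7 without LP replicate 2, 7 without LP replicate 4). The other pathway genes higher in LP (5) ranged from 3 (without LP replicate 1) to 11 (without mature replicate 3), and those higher in mature cells (9) from 7 to 10 with libraries left out and up to 11 with DESeq2. Leaving out both libraries of a number lost the calls of Bmp3 (numbers 1, 2 and 3), Gdf15 (2, 3 and 4), Bmpr1a, Ltbp3 and Smad3 (1, 2 and 4), Bmp1 (1, 3 and 4), Fst (3), Smad2 (2) and Tgif1 (1 and 2). With the replicate block, 7 genes were higher in LP and 9 in mature cells: Tgfb2 (1.21, adjusted p = 0.0275 by edgeR) and Inhbb (0.58, 0.0372) were called, and Gdf15 (-1.62, 0.0516) and Bmp1 (-2.89, 0.0683) were not. LP and mature libraries of the same number, which also share a number in their column names, correlated in their deviations by 0.113, 0.0618, 0.148 and 0.0844. Each library correlated best with its own number, except mature replicate 2, which did so with LP replicate 1 (0.0779). This hints at a pairing in the data, but no source says what the number marks and not every correlation is over 0.1, so the block was kept as an alternative. The sign turned in 8 genes that were not called. Acvr1b was 0.00 with RLE scaling and DESeq2, 0.02 with upper-quartile scaling, 0.05 with no filter, 0.01 with the 10-count filter and 0.10 after thinning, and Smad6 was 0.03 with the replicate block. When libraries were left out, the log2 fold changes ranged over -0.08 to 0.38 for Bmp6, -0.26 to 1.18 for Inhba, -0.41 to 0.31 for Acvr1b, -1.53 to 0.02 for Acvr2b, -0.11 to 0.28 for Bmpr2, -1.50 to 0.79 for Smad6, -0.37 to 0.18 for Smurf1 and -0.11 to 0.31 for Ski. The causes were not tested. Floors of 0.416 to 0.788 CPM limit Bmp2, Bmp4, Bmp7, Bmp8a, Id4, Smad6, Acvr2b and Tgfb1. They also limit the LP values of the called genes Fst (0 to 1.16 CPM) and Bmpr1b (0.498 to 2.32 CPM). Among the other called genes, Bmp1 was at 0 in LP replicate 2, Id3 in LP replicate 3 and Bmp3 in LP replicate 4. The size of these fold changes is therefore uncertain.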
